A study of Mus musculus with 4 samples.

Results

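Kinesins, cytoplasmic dyneins and dynactin are the proteins that carry cargo along microtubules, and their genes were compared here between 2 kinds of hand-picked cell pool from the mouse brain. The genes were found by symbol, without use of any measured value: every row that starts with Kif and a digit or with Dync, together with Klc1 to Klc4 and Dctn1 to Dctn6. This gave 57 of the 24421 genes in the tables. Of these, 54 encode motor subunits: 19 transport kinesins and their light chains, 12 mitotic kinesins, 10 other kinesins, 5 subunits of cytoplasmic dynein 1, 2 subunits of dynein 2 and 6 dynactin subunits. The other 3 rows are Kif1bp, which encodes a kinesin-binding protein, the antisense gene Kif16bos and the pseudogene Kif4-ps.

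Total RNA was sequenced from 4 libraries of 100 fluorescent cells each, 2 of them labelled excitatory, from αCaMKII-positive cells, and 2 labelled inhibitory, from vGAT-positive cells, in a study of ERK signalling in a model of Noonan syndrome. Per the labels, the mice came from αCaMKII-Cre and vGAT-IRES-Cre lines kept by crossing to C57Bl/6J, and were males aged 3 to 5 months. αCaMKII is a kinase of forebrain glutamatergic neurons, and vGAT loads GABA into synaptic vesicles, so each Cre line marks the cells in which that promoter was active. The fluorescent reporter, the brain region, any disease allele and the number of animals behind each library are stated in none of the labels, so the p-values below rest on a spread between libraries that may be technical only.

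Kinesins are ATP-driven motors, most of which walk towards the plus end of a microtubule, which in an axon points away from the cell body. Cytoplasmic dynein 1 walks the other way and needs dynactin to move over long distances. Neurons depend on both for moving vesicles, mitochondria and receptors, whereas the mitotic kinesins build and move the spindle of dividing cells, which mature neurons are not.

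Levels are log2(normalized reads + 1) as deposited, and differences are excitatory minus inhibitory on that scale, tested with limma across all genes at an adjusted p of 0.05. Low values are spaced so that the libraries hold an estimated 61800000 to 74300000 reads. The median difference of all 13619 tested genes was 0.52 in the deposited values and -0.01 after median-of-ratios scaling, so the scaled counterpart, called scaled below, is given beside most differences. Differences of genes at or near 0 under 1 label depend on the pseudocount of 1 in these values. The marker genes went partly with the labels and partly against them. Of 10 tested glutamatergic markers 5 had higher excitatory and 2 higher inhibitory values (5 and 3 after scaling). Of all tested genes 45% and 26.8% did (32.4% and 33.5% after scaling), and all marker counts here stand beside these shares. Slc32a1, which encodes vGAT, was listed at 0 in all 4 libraries, and of 7 tested GABAergic markers 3 were higher in excitatory and 1 in inhibitory libraries (2 and 2 after scaling). Camk2a had 16.53 and 16.46 (excitatory) against 15.60 and 15.66 (inhibitory) (0.87, adjusted p = 0.000318; scaled 0.33, 0.00677). Slc17a7, a glutamatergic transporter gene, had 12.19 and 12.06 (excitatory) against 11.99 and 11.67 (inhibitory) and did not pass (adjusted p = 0.182; scaled -0.24, 0.312). The GABA-synthesis genes did not pass in the deposited values, with 10.91 and 11.17 (excitatory) against 11.45 and 11.59 (inhibitory) for Gad1 (0.0649) and 9.73 and 10.39 (excitatory) against 10.14 and 10.13 (inhibitory) for Gad2 (0.824). After scaling Gad1 was lower in the excitatory libraries (-1.02, adjusted p = 0.00768), while Gad2 did not pass (-0.62, 0.137). Excitatory and inhibitory therefore name libraries by their labels. Markers of other cells were also present. The 8 microglia markers summed to 303 and 354 (excitatory) against 1153 and 919 (inhibitory) per 1000000 normalized reads, with Ptprc listed at 0 in both excitatory libraries. Of the 8, 0 were higher in excitatory and 5 in inhibitory libraries (0 and 7 after scaling). P2ry12, C1qa and C1qb did not pass in the deposited values. The 8 oligodendrocyte markers were present in libraries of both labels, and 5 of them were higher under the excitatory label and 0 under the inhibitory one (5 and 2 after scaling), although their summed normalized reads were lower in the excitatory libraries. Of 8 astrocyte markers 7 were higher under the excitatory label and 0 under the inhibitory one (3 and 1 after scaling), and they summed to 25499 and 26060 (excitatory) against 23304 and 21462 (inhibitory) per 1000000 normalized reads. The part of other cells in the results below was not tested, and in pools of cells fewer cells of a type and less RNA per cell cannot be told apart. A listed 0 is not read as absence, since Lars, which encodes a tRNA synthetase that every cell uses, was at 0 for each excitatory library, against 8.88 and 8.33 (inhibitory).

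The motor genes differed between the labels about as often as genes at large. Of the 57 genes, 42 reached a value of 1 in 2 or more libraries and were tested. Of these 34 passed, where 71.8% of all tested genes did (30 after scaling, background 65.9%). Among them 22 were higher in the excitatory libraries and 12 in the inhibitory libraries, against a background of 45% and 26.8% of all tested genes. After scaling 14 were higher in excitatory and 16 in inhibitory libraries, where the background was 32.4% and 33.5%. The direction of 26 calls was shared by the deposited and scaled values (background 59.3%), and 18 of these also held when any 1 library was left out; counting the deposited values alone, 19 of the 42 did so, against 32% of all tested genes. For a gene at 0 in both libraries of 1 label, leaving out a library of the other label leaves only identical zeros as spread. In those fits the calls of such genes could hardly fail, so these counts say little about them. The median difference of the tested members was 0.45, and -0.08 after scaling. The groups did not overlap for 37 of the 42, against 86.4% of all tested genes. Of the 15 genes that could not be tested, 9 were listed at 0 in all 4 libraries (Kif2b, Kif9, Kif12, Kif19a, Kif20b, Kif26b, Klc3, Kif16bos and Kif4-ps) and 6 had a value of at most 2.89 in some library (Kif6, Kif11, Kif14, Kif18b, Kif23 and Kif24). Per 1000000 normalized reads the 57 genes summed to 11734 and 11930 (excitatory) against 11695 and 11110 (inhibitory), and these sums were not tested.

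**Figure D1:**
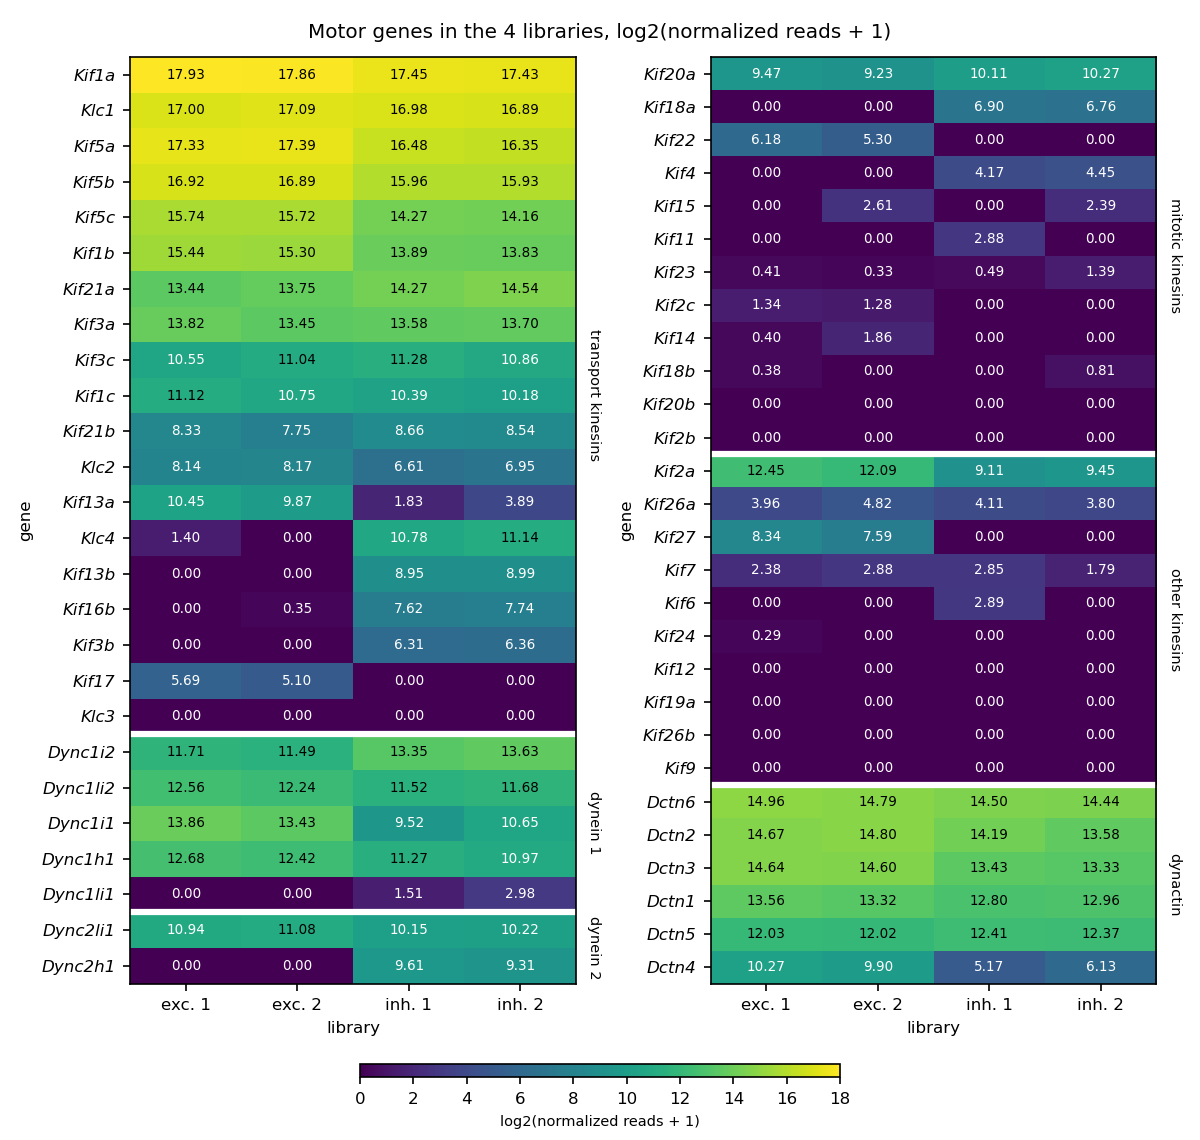
Values of the 54 motor subunit genes in the 4 libraries as log2(normalized reads + 1), grouped by role and sorted by mean within a role; colour runs from 0 to 18 and each cell prints its value. Kif1a, Klc1 and the Kif5 genes are high in all 4 columns, most mitotic kinesins are at or near 0, and several genes such as Klc4, Kif13b and Dync2h1 are high under 1 label and at or near 0 under the other.

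Kinesin-1, the motor of mitochondria and many axonal vesicles, was abundant in every library. Its 3 heavy chain genes were all higher in the excitatory libraries, also after scaling and without any 1 library. Kif5a, the neuronal heavy chain whose human gene is mutated in spastic paraplegia, had 17.33 and 17.39 (excitatory) against 16.48 and 16.35 (inhibitory) (difference 0.94, SE 0.0643, limma adjusted p = 0.000299; scaled 0.40, 0.0197). The ubiquitous heavy chain gene Kif5b had 16.92 and 16.89 (excitatory) against 15.96 and 15.93 (inhibitory) (0.96, SE 0.0515, adjusted p = 0.000159; scaled 0.42, 0.00543). Kif5c, another neuronal heavy chain gene, differed most, with 15.74 and 15.72 (excitatory) against 14.27 and 14.16 (inhibitory) (1.51, SE 0.0784, adjusted p = 0.000147; scaled 0.97, 0.00124). For none of the 3 did the groups overlap. Per kilobase of exon the order was Kif5a, Kif5b, Kif5c in every library, and Kif5c made up 16.3% and 15.9% of the length-scaled kinesin-1 heavy chain reads (excitatory) against 11.6% and 11.5% (inhibitory).

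The kinesin light chains, which bind cargo for kinesin-1, were dominated by Klc1 in all 4 libraries. Klc1 had 17.00 and 17.09 (excitatory) against 16.98 and 16.89 (inhibitory), a difference of 0.11 (SE 0.0617) that did not pass (adjusted p = 0.179). After scaling it was lower in the excitatory libraries (-0.43, adjusted p = 0.014). Of the tested genes taken in by the symbol rule, Klc4 had the largest difference. It had 1.40 and 0 (excitatory) against 10.78 and 11.14 (inhibitory) (-10.26, SE 0.57, adjusted p = 0.000173; scaled -10.62). The gene lies on the minus strand at positions 46630624 to 46646022 of chromosome 17 of mm10 in the GENCODE annotation. Even so Klc4 was only 2.26% and 3.08% of the length-scaled light chain reads in the inhibitory libraries, and Klc1 was 99.8% in each excitatory library against 97.7% and 96.8% in the inhibitory ones. Klc2 had 8.14 and 8.17 (excitatory) against 6.61 and 6.95 (inhibitory) (1.37, SE 0.288, adjusted p = 0.0112); this call was lost after scaling (0.83, adjusted p = 0.0504) and on leaving out excitatory library 1 (adjusted p = 0.0899), excitatory library 2 (adjusted p = 0.0907) or inhibitory library 1 (adjusted p = 0.0676). Klc3 was listed at 0 in every library.

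Kinesin-2 motors carry cargo in axons and dendrites and build cilia. The usual form pairs KIF3A with KIF3B or KIF3C and adds the accessory subunit KAP3. Kif3a was near the same level everywhere, with 13.82 and 13.45 (excitatory) against 13.58 and 13.70 (inhibitory) (-0.01, SE 0.159, adjusted p = 0.958), and its groups overlapped; after scaling it was lower in the excitatory libraries (-0.55, adjusted p = 0.023). Kifap3, the gene of KAP3, did not pass either (0.27, adjusted p = 0.264; scaled -0.28, 0.22). Of the partner genes, Kif3b passed, whereas Kif3c, like Kif3a, did not pass in the deposited values. Kif3b was listed at 0 for each excitatory library, against 6.31 and 6.36 (inhibitory) (limma adjusted p = 0.00017). Kif3c was higher than Kif3b in all 4 libraries per kilobase, and had 10.55 and 11.04 (excitatory) against 11.28 and 10.86 (inhibitory) (-0.27, SE 0.267, adjusted p = 0.4; scaled -0.82, 0.0675). Of the Kif3c exons 35.3% also lie in 1110002L01Rik on the opposite strand, whose values of 10.55, 11.05, 11.44 and 11.11 follow those of Kif3c closely. The kits are not described as keeping strand, so reads of the 2 genes cannot be told apart. Kif17, the homodimeric kinesin-2 that carries NMDA receptor vesicles in dendrites, had 5.69 and 5.10 (excitatory), with 0 listed for each inhibitory library (adjusted p = 0.000387). The calls of Kif3b and Kif17 held after scaling.

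Kinesin-3 motors move synaptic vesicle precursors and endosomes. Kif1a, the main carrier of synaptic vesicle precursors, reached 14.71 and 14.64 (excitatory) against 14.22 and 14.21 (inhibitory) on the log2 scale per kilobase of exon, next to 14.97 and 15.06 (excitatory) against 14.96 and 14.86 (inhibitory) for Klc1. The deposited values of Kif1a were 17.93 and 17.86 (excitatory) against 17.45 and 17.43 (inhibitory) (0.46, SE 0.0433, adjusted p = 0.000792), which was below the median shift of all genes, and the scaled difference of -0.09 did not pass (adjusted p = 0.211). Kif1b, whose products carry mitochondria and vesicles, had 15.44 and 15.30 (excitatory) against 13.89 and 13.83 (inhibitory) (1.51, SE 0.0891, adjusted p = 0.000203; scaled 0.97, 0.00106). The share of Kif1b among the length-scaled Kif1 reads was 8.53% and 8.21% (excitatory) against 4.27% and 4.16% (inhibitory). Kif1c had 11.12 and 10.75 (excitatory) against 10.39 and 10.18 (inhibitory) (0.65, SE 0.218, adjusted p = 0.0485), a call lost after scaling (0.11, adjusted p = 0.688) and whichever library was left out (adjusted p 0.0791 to 0.224).

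The other kinesin-3 genes differed by more than the Kif1 genes. Kif13a, which carries endosomes, had 10.45 and 9.87 (excitatory) against 1.83 and 3.89 (inhibitory) (7.30, SE 0.767, adjusted p = 0.00109; scaled 6.81, 0.0018). Its call was lost on leaving out excitatory library 1 (adjusted p = 0.0821) or excitatory library 2 (adjusted p = 0.0744). Its paralogue Kif13b was listed at 0 for each excitatory library, against 8.95 and 8.99 (inhibitory) (limma adjusted p = 9.49e-05; scaled 1.24e-04). Kif13a, on chromosome 13 at 46749087 to 46929867, was all of the Kif13 reads in the excitatory libraries, and Kif13b, on chromosome 14 at 64647265 to 64809617, was 99.2% and 95.8% of them per length in the inhibitory libraries. Kif16b, a motor of early endosomes, had 0 and 0.35 (excitatory) against 7.62 and 7.74 (inhibitory) (-7.51, SE 0.362, adjusted p = 0.000126; scaled -7.80), and with a pseudocount of 8 the difference was -4.71. The calls of Kif13b and Kif16b held after scaling. Genes with 0 in both libraries of 1 label and at least 5 in both of the other were 4 among the tested members where the zeros were excitatory (Kif3b, Kif13b, Kif18a and Dync2h1; background 5.37%) and 3 where they were inhibitory (Kif17, Kif22 and Kif27; background 5.54%).

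Kif21a and Kif21b encode kinesins that slow microtubule growth and walk along dendrites and axons. Kif21a had 13.44 and 13.75 (excitatory) against 14.27 and 14.54 (inhibitory) (-0.81, SE 0.162, adjusted p = 0.0095; scaled -1.35, 0.00236), so it differed in the direction opposite to the Kif5 genes; its call was lost whichever library was left out (adjusted p 0.0824 to 0.134). Kif21b had 8.33 and 7.75 (excitatory) against 8.66 and 8.54 (inhibitory) and did not pass (-0.56, SE 0.309, adjusted p = 0.166), but passed after scaling (-1.10, 0.0287).

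Of the 18 tested transport genes as a class, 9 were higher in excitatory and 5 in inhibitory libraries (6 and 8 after scaling), near the shares of all tested genes (45% and 26.8%, scaled 32.4% and 33.5%) in the deposited values, with a median difference of 0.28 (scaled -0.26) against 0.52 (scaled -0.01) for all tested genes. Per 1000000 length-scaled reads, the 19 genes summed to 3911 and 4089 (excitatory) against 4391 and 4132 (inhibitory).

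**Figure D2:**
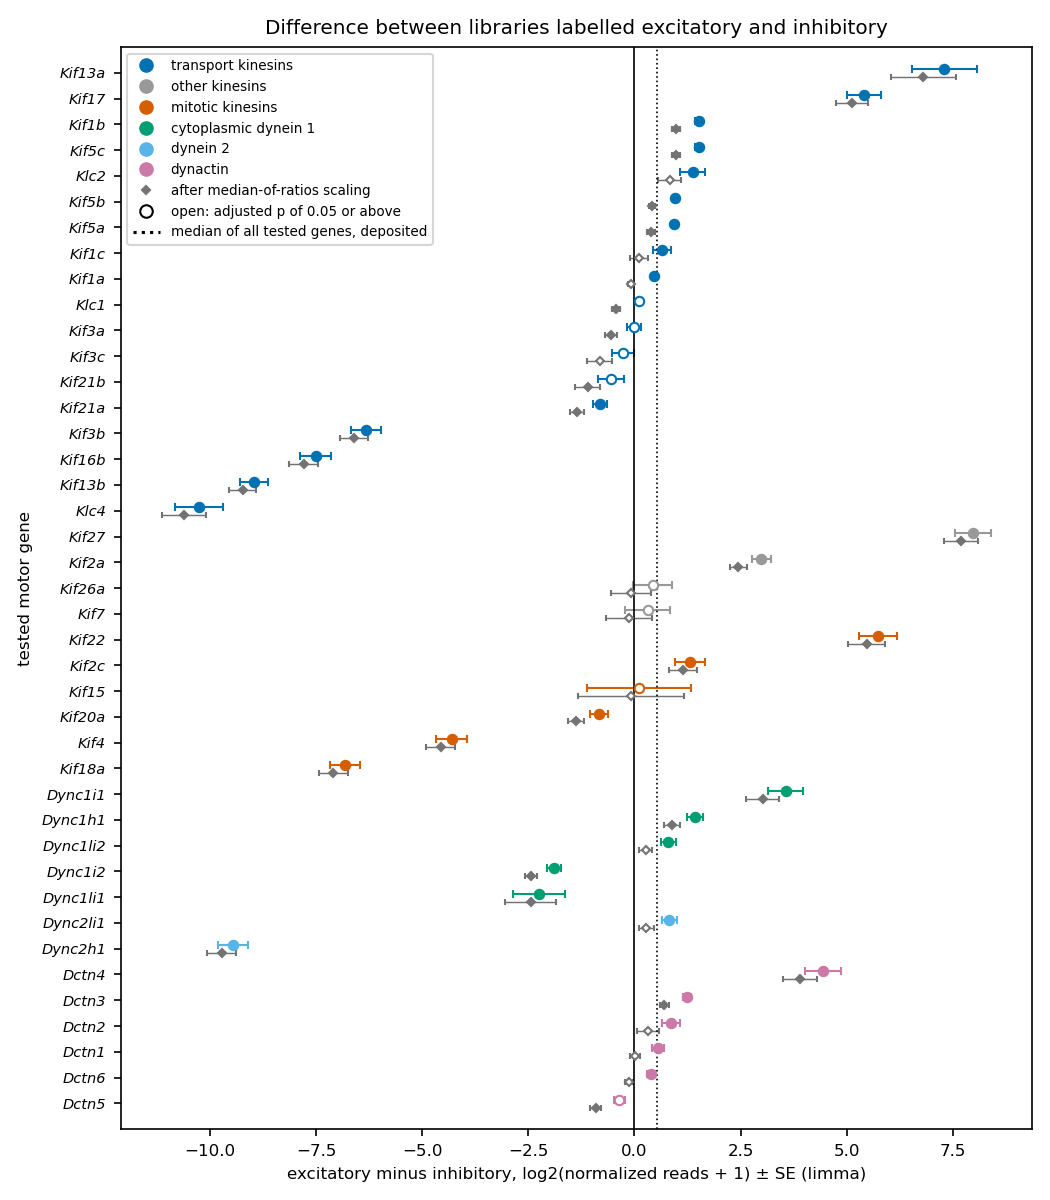
Difference between excitatory and inhibitory libraries for the 41 tested motor subunit genes, with the SE from limma; coloured circles are deposited values, grey diamonds are values after median-of-ratios scaling, open symbols did not pass and the dotted line is the median of all tested genes (0.52). Kif13a, Kif17, Kif27, Kif22 and Dctn4 lie far to the right, Klc4, Dync2h1, Kif13b and Kif16b far to the left, and Kif1a and Dctn6 lie on opposite sides of 0 in the 2 scalings.

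Mitotic kinesins stood far below the transport kinesins in every library. Values of at least 5 were reached by 14 of 19 transport genes in each excitatory and 16 of 19 in each inhibitory library, but by 2 of 12 mitotic genes in each of the 4 libraries. Of all 24421 genes, 10205 to 10414 reached 5 in a library. Per 1000000 length-scaled reads the mitotic genes summed to 6.08 and 5.22 (excitatory) against 14.2 and 15.4 (inhibitory), and without Kif20a to 0.513 and 0.315 (excitatory) against 0.843 and 0.793 (inhibitory). Among the 6 mitotic genes that could be tested, 2 were higher in excitatory and 3 in inhibitory libraries, in the deposited and the scaled values. Of all tested genes 45% and 26.8% were (32.4% and 33.5% after scaling).

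Kif20a, which acts in cytokinesis, was the only mitotic kinesin gene with a value of at least 5 in all 4 libraries. It had 9.47 and 9.23 (excitatory) against 10.11 and 10.27 (inhibitory) (-0.84, SE 0.215, adjusted p = 0.0213; scaled -1.38, 0.00373), and did not pass whichever library was left out (0.0615 to 0.112). Its exons share 29.3% of their length with Cdc23 on the opposite strand, so reads there cannot be assigned to either gene. Cdc23, which encodes a subunit of the anaphase-promoting complex, had 11.52 and 11.04 (excitatory) against 8.59 and 8.83 (inhibitory), a difference in the other direction. Kif18a, a spindle kinesin that dampens chromosome movement, was listed at 0 for each excitatory library, against 6.90 and 6.76 (inhibitory) (adjusted p = 0.000143). Kif4, a chromosome-bound kinesin, was likewise at 0 for each excitatory library, against 4.17 and 4.45 (inhibitory) (adjusted p = 0.000567). Of its exons 15.1% overlap Pdzd11 on the other strand. Kif22, which pushes chromosomes to the spindle equator, had 6.18 and 5.30 (excitatory), with 0 listed for each inhibitory library (adjusted p = 0.000464). Kif2c, a microtubule depolymerase of the kinetochore, had 1.34 and 1.28 in the excitatory libraries and 0 in both inhibitory ones (limma adjusted p = 0.0262). These values lie near the spacing of low values, estimated at 1.3 and 1.24 normalized reads in the excitatory libraries, so they rest on very few reads. Kif2c did not pass with the replicate block (0.106) or with a pseudocount of 8 (0.319). The calls of Kif18a, Kif4, Kif22 and Kif2c held after scaling. Leaving out 1 library is a weak check of them, since each was listed at 0 in both libraries of 1 label.

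The remaining mitotic genes were low or listed at 0. Kif15 had 0 and 2.61 (excitatory) against 0 and 2.39 (inhibitory) and did not pass (0.11, SE 1.23, adjusted p = 0.943). Kif11, the spindle motor that pushes poles apart, was listed at 0 for each excitatory library, against 2.88 and 0 (inhibitory). Kif23, a kinesin of the midbody, was between 0.33 and 1.39 in all 4, while Kif14 and Kif18b reached at most 1.86 and 0.81, and Kif20b and Kif2b were listed at 0 throughout. Other genes of cell division were mostly listed at 0. Of 20 such genes 14 were at 0 in all 4 libraries, Mki67 among them, and 5 could be tested. The share at 0 in all 4 libraries was 70% here, 16.7% for the mitotic kinesins and 39.2% for all genes. Cenpe, itself a mitotic kinesin that the symbol rule does not take in, had 10.95 and 10.14 (excitatory), with 0 listed for each inhibitory library, whereas Top2a was listed at 0 for each excitatory library, against 7.65 and 7.96 (inhibitory) (limma adjusted p = 1.14e-04). Birc5 was higher in the excitatory libraries (1.39, adjusted p = 0.0227), a call lost after scaling (0.0945) and without at least 1 library (highest adjusted p 0.135). Ccna2 was lower in the excitatory libraries (-4.57, adjusted p = 0.000697; scaled -5.10), a call also lost without at least 1 library (highest 0.0542). The 20 genes together took 26.4 and 16.1 (excitatory) against 18.1 and 16.8 (inhibitory) per 1000000 normalized reads.

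**Figure D3:**
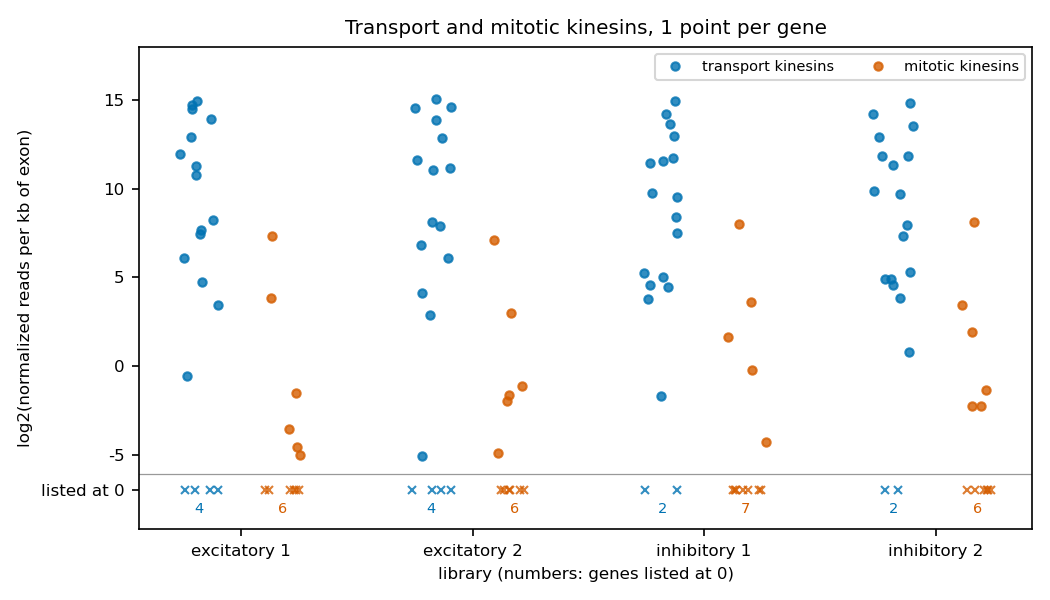
Level of each transport (blue) and mitotic (orange) kinesin gene in each library as log2(normalized reads per kilobase of exon), with crosses and a count for genes listed at 0. Transport genes reach about 15 in every library, whereas the highest mitotic gene, Kif20a, lies between 7.11 and 8.15 and 6 or 7 of the 12 are at 0.

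The promoters of the 2 classes differ in a sequence known from cell-cycle genes. The cell cycle homology region (CHR), spelled TTTGAA or TTCGAA, is a site through which the DREAM complex keeps such genes off in cells that do not divide and MYB-MuvB turns them on in dividing cells. It was searched on both strands (TTTGAA reads TTCAAA on the other strand and TTCGAA reads the same) in RefSeq promoters of build GRCm38.p6, from 250 bases before to 50 bases after each annotated start. At least 1 match was present in 9 of 11 mitotic kinesin genes with a promoter in the table, in 1 of 14 transport kinesin genes and in 21.7% of all 27025 genes. A match that began within 25 bases of the start, a window chosen after the matches had been seen, was present in 7 of the 11 mitotic genes, in 0 of the 14 transport genes and in 3.39% of all genes. Of the 57 genes 44 had a promoter in the table, with 50 windows. Those without one include Kif20a among the mitotic genes and Kif5a, Kif5b, Kif13b, Kif21b and Klc2 among the transport genes. For 37 of these windows the bases just after the RefSeq start were found in a GENCODE transcript of the gene. Distances from the start therefore hold for the RefSeq starts only. A match is a description of the sequence and says nothing of binding in these cells.

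These promoters are shown because they carry the sequence contrast between mitotic and transport kinesins. Each runs 5′ to 3′ on the gene's strand from 70 bases before the annotated start through 25 bases from it, with matches to the CHR motif in capitals. The first 5 are mitotic kinesins with a match at the start. Kif18a is a mitotic kinesin with none, and Kif5c and Klc4 are kinesin-1 genes with none in the window.
Kif11, chr19:37376312-37376406, plus strand: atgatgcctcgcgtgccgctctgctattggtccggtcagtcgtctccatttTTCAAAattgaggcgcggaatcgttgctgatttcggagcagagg
Kif15, chr9:122951011-122951105, plus strand: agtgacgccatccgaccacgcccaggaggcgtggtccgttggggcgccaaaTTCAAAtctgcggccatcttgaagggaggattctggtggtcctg
Kif22, chr7:127042396-127042490, minus strand: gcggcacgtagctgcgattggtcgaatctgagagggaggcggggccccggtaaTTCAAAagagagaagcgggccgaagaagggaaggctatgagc
Kif23, chr9:61946775-61946869, minus strand: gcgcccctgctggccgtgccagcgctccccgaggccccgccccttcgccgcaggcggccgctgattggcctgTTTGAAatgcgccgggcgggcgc
Kif4, chrX:100625995-100626089, plus strand: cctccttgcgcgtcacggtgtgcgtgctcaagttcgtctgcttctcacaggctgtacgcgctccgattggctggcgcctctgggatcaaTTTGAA
Kif18a, chr2:109280668-109280762, plus strand: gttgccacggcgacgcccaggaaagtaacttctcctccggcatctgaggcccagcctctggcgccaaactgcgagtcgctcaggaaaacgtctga
Kif5c, chr2:49619216-49619310, plus strand: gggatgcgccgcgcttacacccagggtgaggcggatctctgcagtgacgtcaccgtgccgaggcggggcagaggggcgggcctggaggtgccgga
Klc4, chr17:46646056-46646150, minus strand: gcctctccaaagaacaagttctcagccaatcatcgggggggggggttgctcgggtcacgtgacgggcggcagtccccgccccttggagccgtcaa

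Counted from the RefSeq start, the motif began 19 bases upstream in Kif11 and Kif15, 17 bases upstream in Kif22, 2 bases downstream in Kif23 and 19 bases downstream in Kif4. In GENCODE the Kif4 gene begins at 100625737, upstream of the printed stretch, so such distances differ with the annotation. Of these 5 genes Kif22 and Kif4 were the ones with values above 4, each in the libraries of 1 label only, while Kif11, Kif15 and Kif23 stayed at or below 2.88.

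**Figure D4:**
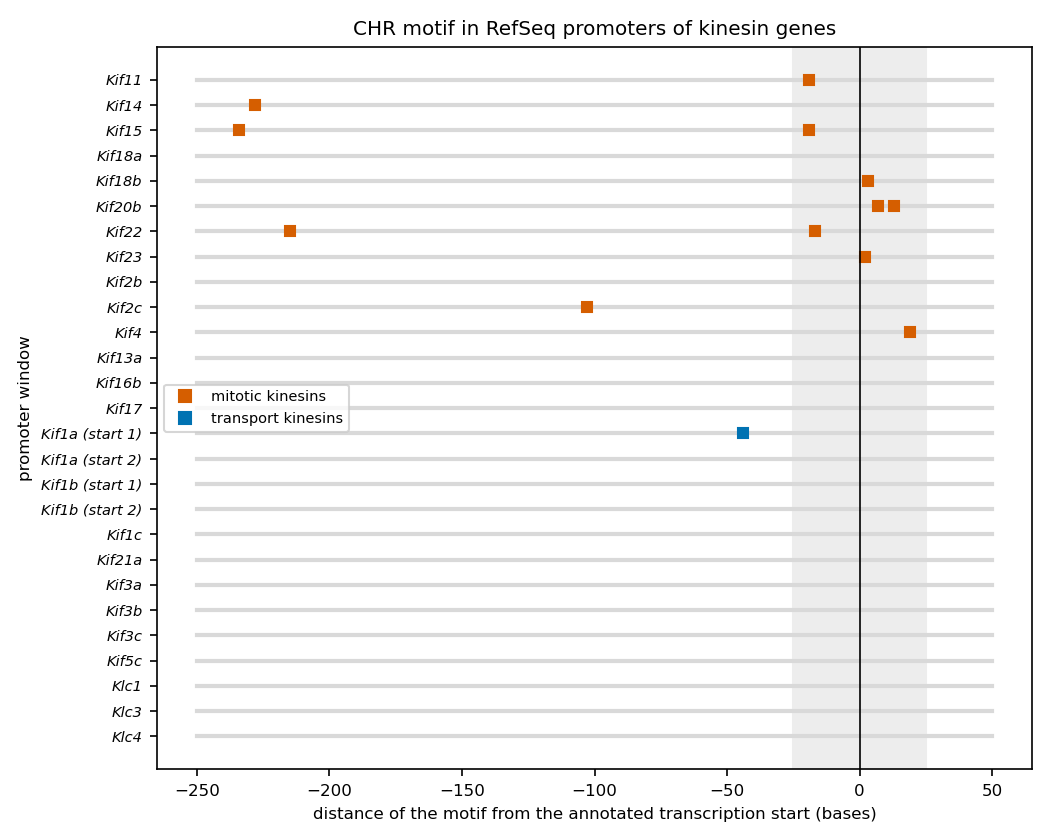
Positions of CHR motif matches in the promoter windows of 11 mitotic (orange) and 14 transport (blue) kinesin genes, in bases from the annotated transcription start at 0; grey bars are the windows searched and the shaded band is within 25 bases of the start. Matches of 7 mitotic genes fall in the band and none of the transport genes do; the only transport match lies 44 bases upstream of 1 of the 2 starts of Kif1a.

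Kinesins outside these classes were mostly at or near 0. Kif2a, a microtubule depolymerase that trims axon branches, and Kif27 were the exceptions. Kif2a had 12.45 and 12.09 (excitatory) against 9.11 and 9.45 (inhibitory) (2.99, SE 0.231, 7.95-fold, adjusted p = 0.000432; scaled 2.45, 0.000708), and it kept its call without any 1 library. Of its exons 19.2% overlap Dimt1 on the other strand, which was listed at 0 for each excitatory library, against 1.84 and 3.14 (inhibitory). Kif27, related to the Hedgehog regulator Kif7, had 8.34 and 7.59 (excitatory), with 0 listed for each inhibitory library (adjusted p = 0.000154). Kif7 had 2.38 and 2.88 (excitatory) against 2.85 and 1.79 (inhibitory), and Kif26a had 3.96 and 4.82 (excitatory) against 4.11 and 3.80 (inhibitory); neither passed (adjusted p = 0.62 and 0.43). Kif1bp, the kinesin-binding protein gene, had 9.12 and 9.41 (excitatory) against 10.62 and 11.08 (inhibitory) (-1.59, SE 0.257, adjusted p = 0.00457; scaled -2.13), and its call was lost on leaving out excitatory library 1 (adjusted p = 0.0931), excitatory library 2 (adjusted p = 0.0748) or inhibitory library 2 (adjusted p = 0.0635). The minus-end kinesins Kifc2 and Kifc3, which the symbol rule does not take in, both had higher values under the excitatory label. Kifc2 had 14.37 and 14.42 there against 12.06 and 12.19 in the inhibitory libraries (2.27, adjusted p = 1.27e-04; scaled 1.73). Kifc3 differed by 2.83 (adjusted p = 0.000574; scaled 2.29), a call lost without at least 1 library (highest adjusted p 0.056).

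Cytoplasmic dynein 1 is built on 1 heavy chain, with intermediate chains that bind dynactin and light intermediate chains that bind adaptors. The heavy chain gene Dync1h1 had 12.68 and 12.42 (excitatory) against 11.27 and 10.97 (inhibitory) (1.43, SE 0.188, 2.7-fold, adjusted p = 0.00227; scaled 0.89, 0.0151). Its call was lost on leaving out excitatory library 1 (adjusted p = 0.0652), excitatory library 2 (adjusted p = 0.0539) or inhibitory library 2 (adjusted p = 0.0532).

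The 2 intermediate chain genes went in opposite directions. Dync1i1, the neuron-enriched form, had 13.86 and 13.43 (excitatory) against 9.52 and 10.65 (inhibitory) (3.56, SE 0.42, 11.8-fold, adjusted p = 0.00159; scaled 3.02, 0.00289). The ubiquitous form Dync1i2 had 11.71 and 11.49 (excitatory) against 13.35 and 13.63 (inhibitory) (-1.89, SE 0.166, adjusted p = 0.000621; scaled -2.43, 2.54e-04). Per length, Dync1i1 was 91.2% and 89.9% of the intermediate chain reads (excitatory) against 14% and 22.7% (inhibitory). The call of Dync1i2 held without any 1 library, whereas that of Dync1i1 was lost on leaving out excitatory library 1 (adjusted p = 0.096) or excitatory library 2 (adjusted p = 0.0826). Dync1i1 spans 5725639 to 6028039 of chromosome 6 and Dync1i2 71211706 to 71263303 of chromosome 2.

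The light intermediate chains came almost wholly from Dync1li2 in all 4 libraries, at 99.7% or more of the length-scaled reads. Dync1li2 had 12.56 and 12.24 (excitatory) against 11.52 and 11.68 (inhibitory) (0.80, SE 0.177, adjusted p = 0.0132), lost after scaling (0.26, adjusted p = 0.21) and without any 1 library (0.0516 to 0.136). Dync1li1 was listed at 0 for each excitatory library, against 1.51 and 2.98 (inhibitory) (adjusted p = 0.0245), a call lost on leaving out excitatory library 1 (adjusted p = 0.211) or excitatory library 2 (adjusted p = 0.21) and with a pseudocount of 8 (0.104).

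Dynein 2 returns cargo from the tip of a cilium, and the 2 of its genes that the symbol rule takes in did not move together. Its heavy chain gene Dync2h1 was listed at 0 for each excitatory library, against 9.61 and 9.31 (inhibitory) (limma adjusted p = 9.49e-05), a call that held after scaling. The light intermediate chain gene Dync2li1 had 10.94 and 11.08 (excitatory) against 10.15 and 10.22 (inhibitory) (0.82, SE 0.176, adjusted p = 0.0119). Its call was lost after scaling (0.28, adjusted p = 0.225) and on leaving out excitatory library 2 (adjusted p = 0.0512), inhibitory library 1 (adjusted p = 0.0634) or inhibitory library 2 (adjusted p = 0.0574). Wdr34, which encodes an intermediate chain of dynein 2, had 10.91 and 11.16 (excitatory) against 5.25 and 6.71 (inhibitory) (5.05, adjusted p = 0.00117; scaled 4.52), a call lost without at least 1 library (highest adjusted p 0.0832). Of 6 markers of ependymal cells, which carry motile cilia, Rsph1 and Ccdc153 were at 0 for each excitatory library, and Rsph1 reached 9.75 and 10.11 (inhibitory); Tmem212, Dynlrb2 and Pifo were at 0 in all 4 libraries. Foxj1 was present under both labels, with 6.64 and 5.76 (excitatory) against 6.13 and 5.69 (inhibitory) (0.29, adjusted p = 0.585; scaled -0.24). The 6 markers summed to 1.23 and 0.685 (excitatory) against 22.5 and 27.5 (inhibitory) per 1000000 normalized reads, and their part in the value of Dync2h1 was not tested.

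**Figure D5:**
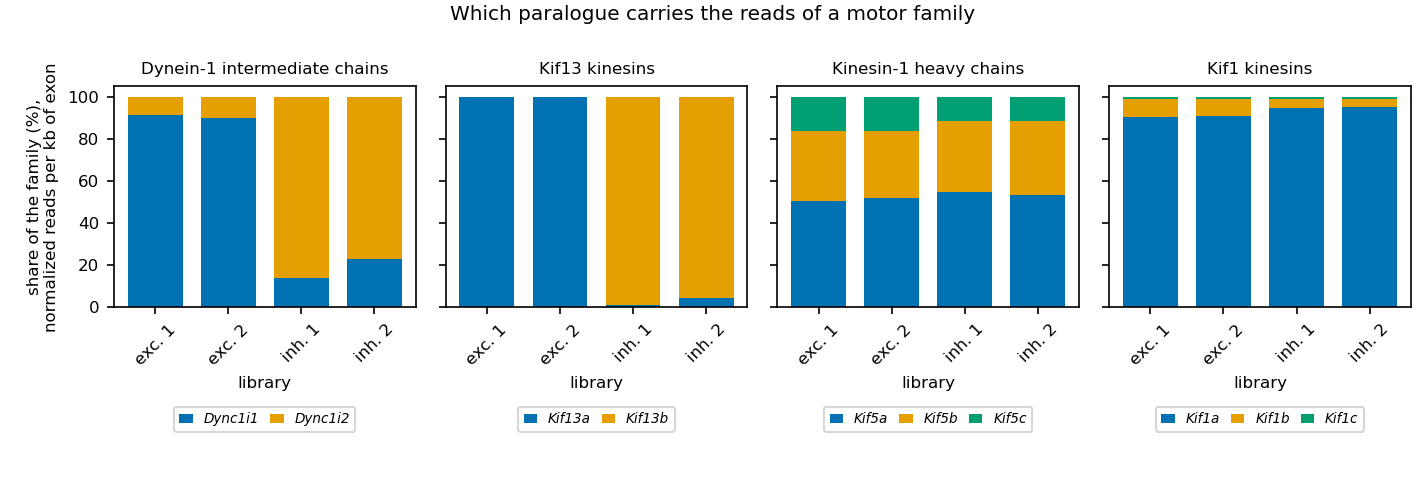
Share of each paralogue in the normalized reads per kilobase of exon of its family, in percent, for the 4 libraries. The intermediate chains of dynein 1 and the Kif13 kinesins change places between excitatory and inhibitory libraries, whereas the kinesin-1 heavy chains and the Kif1 kinesins keep their order.

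Dynactin, the complex that links dynein to cargo, was present throughout: all 6 genes had values above 5 in all 4 libraries. In the deposited values 5 of them passed with higher excitatory levels, where 45% of all tested genes did. After scaling 2 were higher in excitatory and 1 in inhibitory libraries, beside 32.4% and 33.5% of all tested genes. Dctn3, which encodes the p24 subunit of the shoulder, had 14.64 and 14.60 (excitatory) against 13.43 and 13.33 (inhibitory) (1.24, SE 0.0933, adjusted p = 0.000398; scaled 0.70, 0.00468), and it alone of the dynactin genes kept its call without any 1 library. Dctn4, which encodes the p62 subunit at the pointed end, had the largest dynactin difference, with 10.27 and 9.90 (excitatory) against 5.17 and 6.13 (inhibitory) (4.44, SE 0.424, 21.7-fold, adjusted p = 0.00081; scaled 3.90, 0.00133). That call was lost on leaving out excitatory library 1 (adjusted p = 0.0631) or excitatory library 2 (adjusted p = 0.058).

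The other dynactin genes differed by less. Dctn1, the gene of p150Glued, which binds both dynein and the microtubule, had 13.56 and 13.32 (excitatory) against 12.80 and 12.96 (inhibitory) (0.56, SE 0.139, adjusted p = 0.0196), and its scaled difference was 0.01 (adjusted p = 0.923). Dctn2, the gene of dynamitin, had 14.67 and 14.80 (excitatory) against 14.19 and 13.58 (inhibitory) (0.86, SE 0.221, adjusted p = 0.0216; scaled 0.32, 0.333). Dctn6, a pointed-end subunit gene, had 14.96 and 14.79 (excitatory) against 14.50 and 14.44 (inhibitory) (0.40, SE 0.0949, adjusted p = 0.0161), with the opposite sign after scaling (-0.14, adjusted p = 0.259). Without a single library Dctn1 lost its call in each case (0.0733 to 0.152), Dctn2 on leaving out excitatory library 1 (adjusted p = 0.215), excitatory library 2 (adjusted p = 0.255) or inhibitory library 2 (adjusted p = 0.0656), and Dctn6 on leaving out excitatory library 1 (adjusted p = 0.0769), inhibitory library 1 (adjusted p = 0.118) or inhibitory library 2 (adjusted p = 0.137). Dctn5, the partner of Dctn6 at the pointed end, had 12.03 and 12.02 (excitatory) against 12.41 and 12.37 (inhibitory) (-0.36, SE 0.125, adjusted p = 0.0519) and passed after scaling (-0.91, 0.00375). Per kilobase of exon Dctn3 was highest and Dctn4 lowest in every library, at 14.58 and 14.54 for Dctn3 in the excitatory and 13.37 and 13.27 in the inhibitory libraries, on the log2 scale.

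Taken as 1 class, the 13 dynein and dynactin genes included 9 with higher excitatory and 3 with higher inhibitory values, where 45% and 26.8% of all tested genes were. After scaling they were 4 and 4, near the shares of all tested genes (32.4% and 33.5%), and the median difference was 0.80 (scaled 0.26). The actin-related and capping subunits of dynactin, which have other symbols, gave 5 higher in excitatory and 1 in inhibitory libraries of 6 tested (2 and 1 after scaling). The 2 genes of the Arp1 filament, like the intermediate chains, went opposite ways. Actr1a had 9.13 and 8.68 (excitatory) against 10.83 and 11.39 (inhibitory) (-2.21, adjusted p = 0.00266; scaled -2.75; highest adjusted p without a library 0.081). Actr1b had 12.31 and 12.54 (excitatory) against 9.79 and 9.60 (inhibitory) (2.73, adjusted p = 2.93e-04; scaled 2.19), and Actr10 was higher in the excitatory libraries too (1.85, adjusted p = 3.95e-04; scaled 1.31). Of 11 tested dynein light chain and associated genes 8 were higher in excitatory and 1 in inhibitory libraries, against 3 and 3 after scaling; Dynlt1b differed by 1.05 (adjusted p = 0.00151; scaled 0.51, 0.0162). Dynlt1b, Dynlt1c and Dynlt1f are near-identical copies whose reads the counting could split, so their values are uncertain.

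Adaptors that tie the motors to cargo included genes of both directions, and their counts stand beside 45% and 26.8% of all tested genes (scaled 32.4% and 33.5%). Of 14 tested adaptors and regulators of dynein 4 were higher in excitatory and 7 in inhibitory libraries (3 and 7 after scaling). Bicd1, a dynein adaptor of Golgi vesicles, had 9.57 and 9.28 (excitatory), with 0 listed for each inhibitory library, while Nin, a centrosomal dynein adaptor, had 2.71 and 2.31 (excitatory) against 12.09 and 12.24 (inhibitory) (-9.66, limma adjusted p = 9.49e-05; scaled -10.15). Hook1, an adaptor for endosomes, had 3.68 and 3.29 (excitatory), with 0 listed for each inhibitory library. Of 19 tested adaptors and regulators of kinesins 10 were higher in excitatory and 3 in inhibitory libraries (6 and 4 after scaling). Fez1, a kinesin-1 adaptor of axons, had 14.81 in both excitatory libraries against 13.09 and 13.03 in the inhibitory ones (1.75, SE 0.0896, adjusted p = 1.42e-04; scaled 1.21). Madd, an adaptor of Kif1a and Kif1b, had 13.32 and 13.43 (excitatory) against 11.72 and 11.40 (inhibitory) (1.82, SE 0.163, adjusted p = 0.000668; scaled 1.28; highest adjusted p without a library 0.0504), and Arl8b, a GTPase that recruits kinesins to lysosomes, differed by 2.36 (adjusted p = 0.000834; scaled 1.82; highest 0.0609).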

How the data were processed

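The authors' deposited tables hold 1 log2 value per gene and library, log2(normalized reads + 1); the tools named in the submitters' processing notes are TopHat and edgeR, with build mm10, and for counting and scaling no step is given in the sources used here. In R 4.3.3, limma 3.58.1 (mean-variance trend, prior 2.56 and residual 2 degrees of freedom) fitted excitatory minus inhibitory to the 13619 genes that reached 1 in 2 or more libraries, adjusting p by Benjamini-Hochberg over all of them. Simulated data with known changes were used to check the fit. The members, lists and tests were chosen with earlier results of these data known. Named were all members, and of each other list up to 4 genes past the threshold by smallest p; Lars, Kifap3, Mki67 and genes that overlap members were added after their values were seen. Exon lengths (the union of a gene's exons), positions and overlaps are from GENCODE M21, which held 57 of 57 members and 95.7% of all symbols, and promoters from RefSeq on GRCm38.p6. CPM-like sums are shares of a library's summed linear values; length-scaled ones divide by exon length first. Alternatives were 2 scalings, 2 filters, another pseudocount, no trend, a replicate block and leaving out each library. Depth per library is an estimate from the spacing of low values, so no counting interval is given. The median squared difference between replicates was 51.3 (excitatory) and 56.4 (inhibitory) times that expected from counting error, by the estimated reads. No library was counted as a copy.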

Additional observations from a re-analysis of the deposited data

How the results depend on the processing

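In the deposited values 9777 genes passed. The total was between 8947 and 9782 under the alternatives that kept all 4 libraries, and 6103 to 6551 with 1 library left out; these totals do not say which genes. Median-of-ratios and upper-quartile scaling each moved the members higher in the excitatory libraries from 22 to 14, the dynein and dynactin genes among them from 9 to 4, and the transport kinesins higher in the inhibitory libraries from 5 to 8. Without any 1 library the members higher in the excitatory libraries were 12 to 16, the dynein and dynactin genes among them 2 to 5, and the members higher in the inhibitory libraries 8 to 10. The mitotic kinesins higher in the excitatory libraries were 1 in place of 2 with a pseudocount of 8, with the replicate block and with the stricter filter, since Kif2c no longer passed or was no longer tested. The replicate numbers did not pair the libraries (correlation of deviations -0.00193), and the replicate block gave 9782 calls over all genes and changed the call of no member other than Kif2c. Differences changed sign after median-of-ratios and upper-quartile scaling for Dctn6 (-0.14 and -0.14), Kif15 (-0.08 and -0.10), Kif1a (-0.09 and -0.08), Kif26a (-0.08 and -0.07), Kif7 (-0.13 and -0.13) and Klc1 (-0.43 and -0.43). Leaving out 1 library at a time changed the sign of 3 differences that had not passed: Kif15 then ranged from -1.20 to 1.41, Kif3a from -0.20 to 0.17 and Kif7 from -0.22 to 0.84. Without the mean-variance trend Dctn1 (adjusted p = 0.0746), Dctn2 (0.0623), Dctn6 (0.125), Kif1a (0.084) and Kif1c (0.0725) did not pass. With a pseudocount of 8 the size of called differences against a group at or near 0 fell by over 1.5 times for Kif16b (-4.71), Kif17 (2.62), Kif18a (-3.92), Kif22 (2.92), Kif27 (5.01), Kif3b (-3.45) and Kif4 (-1.75). Those of Dync1li1 (-0.60) and Kif2c (0.25) fell by over 1.5 times too and no longer passed. The cause of these changes was not tested. Depth is known only by estimate, and 2 libraries per label limit the precision.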

Other observations

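The tracks on which the motors run were present in every library. All 16 tubulin and microtubule-associated protein genes of the list had values of at least 5 in all 4 libraries, and 13 were higher in excitatory and 2 in inhibitory libraries (7 and 2 after scaling), where 45% and 26.8% of all tested genes were (32.4% and 33.5% after scaling). Tubb4a, a tubulin gene of myelinating cells and neurons, had 14.66 and 14.56 (excitatory) against 12.14 and 11.97 (inhibitory) (2.55, SE 0.118, limma adjusted p = 1.16e-04; scaled 2.01). Tuba1a, the main alpha-tubulin gene of neurons, differed by 0.96 (adjusted p = 1.95e-04; scaled 0.42, 0.00113), Tuba4a by 1.70 (scaled 1.16) and Tubb5 by 1.63 (scaled 1.09).

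Genes of intraflagellar transport, the ciliary system that uses kinesin-2 and dynein 2, are given beside the shares of all tested genes (45% and 26.8%, scaled 32.4% and 33.5%). Of 15 tested, 7 were higher in excitatory and 4 in inhibitory libraries (4 and 6 after scaling). Ift74 had 13.31 and 13.54 (excitatory) against 9.35 and 8.85 (inhibitory) (4.33, SE 0.233, limma adjusted p = 1.60e-04; scaled 3.79). Ift88 had 5.18 and 5.69 (excitatory), with 0 listed for each inhibitory library, and Ift172 had 5.66 and 5.51 (excitatory) against 10.02 and 9.37 (inhibitory) (-4.11, SE 0.339, adjusted p = 0.000519; scaled -4.65). Axonemal dyneins drive motile cilia. Of 14 listed genes of this family, 6 (42.9%) were at 0 in all 4 libraries, near the 39.2% of all genes. A value of at least 5 was reached in some library by 6 of the 14. It was reached in all 4 libraries by 2 (14.3%, against 33.5% of all genes). Among the 7 tested, 2 passed with larger excitatory and 2 with larger inhibitory values, also after scaling. Dnah17 was above 5 in all 4, with 8.46 and 8.23 (excitatory) against 6.05 and 5.20 (inhibitory). Its difference was 2.72 (limma adjusted p = 0.00344; scaled 2.18), a call lost without at least 1 library. Dnah7a had 8.01 and 6.76 (excitatory), with 0 listed for each inhibitory library, while Dnah1 (6.98 and 6.30) and Dnah9 (6.32 and 5.36) had these inhibitory values and 0 for each excitatory library.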
